A study of Mus musculus with 4 samples.

Results

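Integrins are cell-surface receptors made of an alpha and a beta chain, and they hold T cells to other cells and to the extracellular matrix. The genes described here are the 10 integrin chains best known in T cell adhesion and tissue residency, 6 alpha chains (*Itga1*, *Itga2*, *Itga4*, *Itgal*, *Itgav* and *Itgae*) and 4 beta chains (*Itgb1*, *Itgb2*, *Itgb3* and *Itgb7*). They were chosen by symbol out of 15981 genes listed in any library, and all 10 were found. The RNA-Seq data compared tumor-infiltrating Tc1 cells with tumor-infiltrating Tc9 cells, with 2 libraries per group. The transferred cells of both groups, labelled as strain C57BL/6, were CD8+ T cells marked by Thy1.1, with the Pmel-1 receptor against a melanocyte antigen, and the methods list Pmel-1 transgenic mice apart from C57BL/6. Tc9 cells are CD8+ T cells that secrete IL-9 and were polarized in culture with IL-4, TGF-β and anti–IFN-γ, and Tc1 cells secrete IFN-γ and were polarized with rhIL-2. Each culture lasted 5 days. The cells were then given to Thy1.2+ B6 hosts with 10-day subcutaneous B16 melanomas, with cyclophosphamide, dendritic cells and rhIL-2 as adjuvant treatments in both groups, and were sorted from the tumors 14 days after transfer. The methods name 6 mice and RNA pooled into the 2 samples of each group, so a library is a pool of an unknown number of mice, and p-values measure only the spread between pools. The Thy1.2+ hosts have T cells of their own.

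CD103, the αE chain encoded by *Itgae*, pairs only with the β7 chain (*Itgb7*) and binds E-cadherin on epithelial cells. It is the classic surface marker of tissue-resident CD8+ T cells, and TGF-β is its best known inducer. The α4 chain (*Itga4*) pairs with β1 to bind VCAM-1 and fibronectin, or with β7 to bind MAdCAM-1 on gut vessels. LFA-1, made of αL (*Itgal*) and β2 (*Itgb2*), binds ICAM-1 and holds a T cell to its target cell. The α1 and α2 chains pair with β1 as collagen receptors, and αV (*Itgav*) with β1 or β3 (*Itgb3*) binds vitronectin, fibronectin and osteopontin, and with other beta chains binds latent TGF-β.

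The deposited tables list genes by identifier, sorted as text and not by size, and reach different points in that order. This sets how each chain could be compared. Only *Itga1* is reached by all 4 tables, and the other 9 chains are reached by Tc1 replicate 2 and both Tc9 libraries. For these 9, the test therefore set 1 Tc1 library against 2 Tc9 libraries and assumed that the lone Tc1 library varied like the Tc9 libraries. An exact permutation test of 1 library against 2 cannot go below p = 0.333. The library depths were 30822953 to 31927162 counts. The values are expected counts, which estimate the reads of a gene and need not be whole, and FPKM, in which fragments are scaled by gene length and library size. The 3 libraries that reach *Il9* and *Ifng* fit their labels, and Tc1 replicate 1 does not reach them and could not be checked this way. *Il9* had 3 expected counts in Tc1 replicate 2 and 2601 and 2667 in the Tc9 libraries, *Ifng* had 15303 against 5097 and 4700, and *Cd8a* had 21622 and 21532 against 21166 and 19330. Of 11 T cell markers tested, 8 in 4 libraries, where 34.1% of all genes were called, and 3 in 3 libraries, where 20.4% were, *Cd3e*, *Cd3g* and *Il9* were higher, with log2 fold changes of 0.73 and 0.49 for *Cd3e* and *Cd3g*, and *Cd2*, *Cd5* and *Ifng* were lower, with −0.44 and −0.61 for *Cd2* and *Cd5*. The calls of *Cd3e*, *Cd3g*, *Cd2* and *Cd5* were lost without Tc1 replicate 2 (adjusted p of 0.077 to 0.35, edgeR), and those of *Cd3g* (0.25), *Cd2* (0.16) and *Cd5* (0.064) without Tc1 replicate 1. With no filter *Cd3e* (0.074) was lost, and with limma at a pseudocount of 0.1 all 4 were (0.054 to 0.13). In a bulk sample, fewer cells with a transcript and less transcript per cell cannot be told apart.

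Promoter sequences are shown for 3 of the chains that changed, 1 that rose and 2 that fell, because TGF-β signals through SMAD proteins and RUNX proteins are regulators of integrin genes in CD8+ T cells. No promoter sequence was at hand for *Itgae* and *Itgb3*, the chains that rose most. Each is the 250 bases before the gene's start in a RefSeq promoter set in GRCm38.p6, written 5′ to 3′ on the gene's strand. Capitals mark the SMAD core (CAGAC, or GTCTG on the other strand) and the RUNX core (TGTGGT, or ACCACA on the other strand). Of 32851 promoter windows of the same length, 42.2% held the SMAD core and 14.0% held the RUNX core. The *Itgb7* window is chr15:102231936-102232185 on the minus strand, the *Itga4* window is chr2:79255176-79255425 on the plus strand, and the *Itgav* window is chr2:83724147-83724396 on the plus strand.
Itgb7: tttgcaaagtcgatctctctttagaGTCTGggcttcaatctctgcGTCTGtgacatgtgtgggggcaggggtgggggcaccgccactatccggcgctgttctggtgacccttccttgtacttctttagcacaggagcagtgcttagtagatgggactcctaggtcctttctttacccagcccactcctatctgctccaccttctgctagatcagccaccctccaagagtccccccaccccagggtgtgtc
Itga4: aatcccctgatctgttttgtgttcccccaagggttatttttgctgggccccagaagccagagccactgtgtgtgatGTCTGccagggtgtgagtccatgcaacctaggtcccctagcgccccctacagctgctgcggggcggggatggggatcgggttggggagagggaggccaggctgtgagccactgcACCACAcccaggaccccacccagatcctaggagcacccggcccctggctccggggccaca
Itgav: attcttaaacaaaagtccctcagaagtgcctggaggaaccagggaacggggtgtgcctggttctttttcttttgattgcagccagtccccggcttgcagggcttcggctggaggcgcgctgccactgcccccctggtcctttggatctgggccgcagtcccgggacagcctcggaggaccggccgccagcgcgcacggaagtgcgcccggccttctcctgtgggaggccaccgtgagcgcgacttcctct
The *Itgb7* window held 2 SMAD cores and 0 RUNX cores, the *Itga4* window held 1 of each, and the *Itgav* window held 0 of both. These matches are a description of the letters and not of binding. The *Itgb7* and *Itgav* windows lie inside the gene spans given below, whose starts are further upstream.

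Of the 9 chains tested, 5 changed at an adjusted p below 0.05 by edgeR's quasi-likelihood test. *Itgae*, *Itgb3* and *Itgb7* were higher in Tc9 cells, and *Itga4* and *Itgav* were lower. Among all 2622 genes in the same test, 20.4% were called, 12.5% higher and 7.93% lower. With no filter on low counts, or with limma on log2 FPKM, no gene passed in these 3 libraries, and the adjusted p of the 5 chains then lay between 0.12 and 0.24. The edgeR fit found no difference in spread between genes, so its small p-values rest on a spread shared by all genes. The median log2 fold change was −0.11 over the 9 chains and 0.02 over all genes tested. By counts scaled with TMM factors, the Tc1 library lay outside the range of the Tc9 libraries for all 9 chains, as it did for 81.8% of all genes tested, so that order alone says little with 3 libraries. In the 4-library comparison of other genes, the groups did not overlap for 70.4% of the genes tested.

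**Figure D1:**
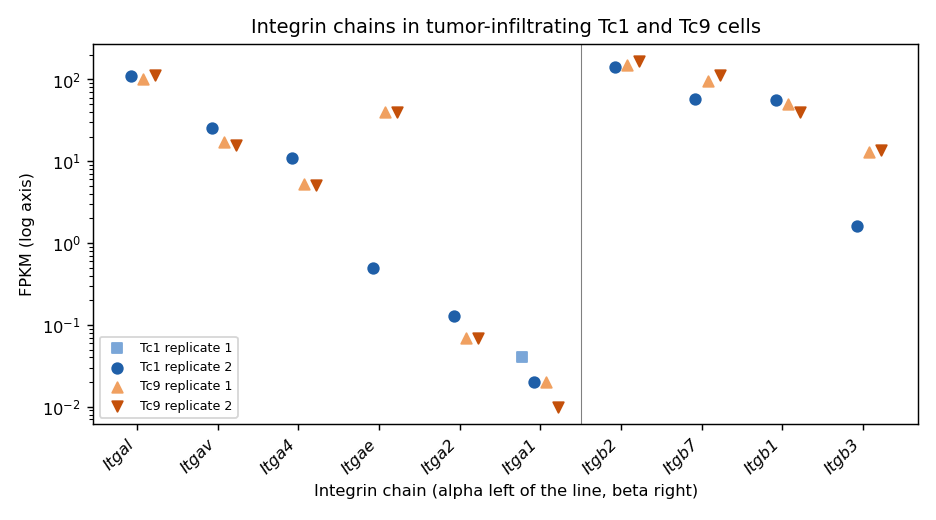
FPKM (fragments scaled by gene length and library size, log axis) of each integrin chain in each library, with alpha chains left of the line and beta chains right of it. The Tc1 point of *Itgae* sits at 0.50 and the Tc9 points at 40.06 and 40.62, whereas the points of *Itgal* and *Itgb2* lie close together.

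*Itgae* had the largest difference of the 9 chains. Its expected count was 59 in Tc1 replicate 2, 4599 in Tc9 replicate 1 and 4619 in Tc9 replicate 2. On the FPKM scale it was 0.50 in Tc1 cells against 40.06 and 40.62 in Tc9 cells. The Tc9 libraries were thus nearly the same, and the Tc1 library was far below both. The log2 fold change was 6.26 ± 0.38 (SE; 95% interval 5.51 to 7.01; adjusted p = 1.88e-54, edgeR), a 76.4-fold difference. It was the 18th highest of the 2622 log2 fold changes. Among the genes listed in its library, *Itgae* stood at percentile 30.3 by FPKM in Tc1 replicate 2 and at percentiles 82.3 and 82.2 in the Tc9 libraries. The gene (identifier 16407) lies at chr11:73090505-73147449 on the plus strand in GRCm38. *Haspin*, a kinase gene within it on the opposite strand, shares no exon base with it and had 1103 counts in Tc1 replicate 2 against 1402 and 1398 in the Tc9 libraries (adjusted p = 0.406, edgeR).

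*Itgb7*, the partner of αE, was also higher in Tc9 cells, but by far less. Its expected count was 4668 in Tc1 replicate 2, 7584 in Tc9 replicate 1 and 9028 in Tc9 replicate 2, or 57.18, 95.35 and 114.57 FPKM. Both Tc9 libraries lay above the Tc1 library, and they differed from each other by 0.24 on the log2 scale. The log2 fold change was 0.80 ± 0.27 (SE, adjusted p = 0.0168, edgeR), a 1.74-fold difference. The call was lost when the scaling factors of the 4-library range were used (adjusted p = 0.086) and with the degrees of freedom of the 4-library fit (adjusted p = 0.099). *Itgb7* (identifier 16421) lies at chr15:102215994-102233405 on the minus strand.

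The balance of the αE and β7 transcripts was therefore different in the 2 groups. Within each library, *Itgae* FPKM divided by *Itgb7* FPKM was 0.00874 in Tc1 replicate 2, 0.420 in Tc9 replicate 1 and 0.355 in Tc9 replicate 2. The log2 ratio was 5.46 higher in Tc9 cells, where the SD between the Tc9 libraries was 0.17. A ratio within a library does not depend on its depth. By the same measure, *Itgb7* exceeded *Itga4*, its other partner, 5.19-fold in Tc1 replicate 2 and 18.0-fold and 22.2-fold in the Tc9 libraries. Between the alpha partners of β7, *Itgae* was 0.0454 of *Itga4* in Tc1 replicate 2 and 7.57 and 7.87 times *Itga4* in the Tc9 libraries, so that *Itga4* was the more abundant partner transcript in Tc1 cells and *Itgae* in Tc9 cells.

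*Itgb3*, the β3 chain of the vitronectin receptor, had the next largest difference. Its expected count was 261 in Tc1 replicate 2, 2147 in Tc9 replicate 1 and 2167 in Tc9 replicate 2, or 1.60, 13.00 and 13.90 FPKM. As for *Itgae*, the Tc9 libraries were nearly equal in count and the Tc1 library stood apart. The log2 fold change was 3.02 ± 0.30 (SE, adjusted p = 1.77e-21, edgeR), an 8.10-fold difference and the 65th highest of 2622. *Itgb3* (identifier 16416) lies at chr11:104608000-104670476 on the plus strand. β3 is also abundant on platelets with the αIIb chain (*Itga2b*), whose count was 67 in Tc1 replicate 2 and 62 and 71 in the Tc9 libraries (adjusted p = 0.954, edgeR). The platelet glycoprotein genes *Gp1ba*, with 37 against 43 and 31 counts, and *Gp5*, with 15 against 6 and 6, were low, and 0 of the 3 platelet markers tested were called, beside 20.4% of all genes, which with 3 markers says little.

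*Itgav*, the αV partner of β3, went the other way. Its expected count was 5574 in Tc1 replicate 2, 3674 in Tc9 replicate 1 and 3364 in Tc9 replicate 2, or 25.18, 17.07 and 15.78 FPKM. The log2 fold change was −0.69 ± 0.25 (SE, adjusted p = 0.0337, edgeR), and *Itgav* had the adjusted p nearest the threshold of the 5 chains called. The call was lost with library sizes alone (adjusted p = 0.064), with the scaling factors of the 4-library range (0.11) and with the degrees of freedom of the 4-library fit (0.13). *Itgav* (identifier 16410) lies at chr2:83722303-83806917 on the plus strand and shares 634 exon bases with *Gm13684* on the opposite strand. With β3 higher and αV lower, *Itgav* FPKM exceeded *Itgb3* FPKM 15.7-fold in Tc1 replicate 2, and 1.31-fold and 1.14-fold in the Tc9 libraries. The Tc9 minus Tc1 difference of the log2 ratio was −3.69, with an SD of 0.15 between the Tc9 libraries.

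*Itga4*, the α4 chain of VLA-4 and of the gut-homing α4β7 integrin, was lower in Tc9 cells. Its expected count was 3419.35 in Tc1 replicate 2, 1597.46 in Tc9 replicate 1 and 1540.49 in Tc9 replicate 2, or 11.01, 5.29 and 5.16 FPKM. The log2 fold change was −1.15 ± 0.25 (SE, adjusted p = 4.74e-05, edgeR), and the Tc9 libraries differed by 0.06 on the same scale. *Itga4* (identifier 16401) lies at chr2:79255426-79333114 on the plus strand. Its counts are not whole, and it shares 1124 exon bases with *Cerkl* on the opposite strand, which had 92.18 counts in Tc1 replicate 2 and 63.53 in Tc9 replicate 2. Whether reads were assigned by strand is not given in the sources used here, so the share of *Cerkl* in the *Itga4* count is not known. Against its β1 partner, *Itga4* FPKM was 0.198 of *Itgb1* FPKM in Tc1 replicate 2 and 0.106 and 0.127 of it in the Tc9 pair.

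**Figure D2:**
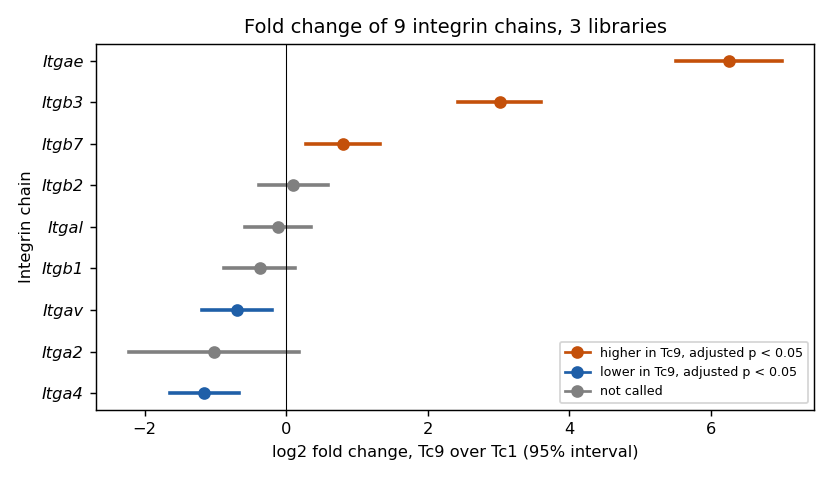
Log2 fold change of Tc9 over Tc1 for the 9 chains tested, with 95% intervals from edgeR. *Itgae* lies at 6.26 and *Itgb3* at 3.02, *Itgb7* lies at 0.80, and the intervals of *Itgb2*, *Itgal*, *Itgb1* and *Itga2* cross 0.

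Neither chain of LFA-1 passed the test. *Itgal* had expected counts of 17955 in Tc1 replicate 2 and 16041 and 17813 in the Tc9 libraries, or 110.39, 101.38 and 113.69 FPKM. The Tc1 library lay only just above the higher Tc9 library in count and between the Tc9 libraries in FPKM and in CPM without TMM factors, and the log2 fold change was −0.11 ± 0.24 (SE; 95% interval −0.59 to 0.36; adjusted p = 0.794, edgeR). *Itgb2*, the β2 chain of LFA-1 and of the myeloid integrins, had 12220 counts in Tc1 replicate 2 against 12678 and 14022 in the Tc9 pair, with a log2 fold change of 0.10 ± 0.25 (SE; 95% interval −0.39 to 0.59; adjusted p = 0.827, edgeR). The upper bounds of both intervals lie below the lower bounds for *Itgae*, at 5.51, and *Itgb3*, at 2.43. The *Itgal* to *Itgb2* ratio by FPKM was 0.786 in Tc1 replicate 2 and 0.677 and 0.680 in the Tc9 libraries. *Itgal* (identifier 16408) lies at chr7:127296139-127335137 and *Itgb2* (identifier 16414) at chr10:77530329-77565708, both on the plus strand.

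*Itgb1*, the common β1 chain, had 6545 counts in Tc1 replicate 2 against 5702 and 4615 in the Tc9 pair, or 55.53, 49.69 and 40.62 FPKM. The Tc9 libraries differed from each other by 0.32 on the log2 scale, nearly as much as the log2 fold change of −0.37 ± 0.25 (SE; 95% interval −0.87 to 0.13; adjusted p = 0.323, edgeR). *Itgb1* (identifier 16412) lies at chr8:128685654-128733579 on the plus strand. The collagen-binding alpha chains that pair with it had few counts. *Itga2* (identifier 16398, chr13:114833081-114932100, minus strand) had 22 counts in Tc1 replicate 2 and 11 in each Tc9 library (log2 fold change −1.02 ± 0.61 SE, adjusted p = 0.248, edgeR). *Itga1* (identifier 109700, chr13:114958079-115101964, minus strand), which encodes CD49a of resident T cells, had 7 and 3 counts in Tc1 replicates 1 and 2 and 4 and 2 counts in Tc9 replicates 1 and 2, and was not tested because it was under the count minimum. Its FPKM was at most 0.04 in any library, so the data cannot show whether it differed. The difference in *Itgae* was thus measured in cells with almost no *Itga1*.

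By FPKM, *Itgb2* was the most abundant of the 10 chains in each of the 3 libraries that reach all of them, and *Itga2* and *Itga1* were the lowest. In Tc1 replicate 2 the order was *Itgb2*, *Itgal*, *Itgb7*, *Itgb1*, *Itgav*, *Itga4*, *Itgb3*, *Itgae*, *Itga2* and *Itga1*. In Tc9 replicate 1, *Itgae* followed *Itgb1* and stood above *Itgav*, *Itgb3* and *Itga4*. Some neighbours in the Tc9 order could not be told apart, since *Itgal* exceeded *Itgb7* in Tc9 replicate 1 and *Itgb7* exceeded *Itgal* in Tc9 replicate 2, and *Itgae* and *Itgb1* were both at 40.62 FPKM in Tc9 replicate 2. The single Tc1 library gives no spread for its order.

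The make-up of the alpha chain pool differed mainly through *Itgae*. Its share of the summed alpha FPKM was 0.34% in Tc1 replicate 2 and 24.4% and 23.2% in the Tc9 libraries. *Itgal* took 75.0% against 61.9% and 64.8%, *Itgav* 17.1% against 10.4% and 9.0%, and *Itga4* 7.48% against 3.23% and 2.94%. Among the beta chains, *Itgb7* took 22.4% in Tc1 replicate 2 and 31.0% and 34.1% in the Tc9 libraries, *Itgb1* 21.8% against 16.1% and 12.1%, and *Itgb3* 0.63% against 4.22% and 4.13%. The summed FPKM of the 10 chains was 402.07 in Tc1 replicate 2 and 471.60 and 511.51 in the Tc9 libraries. Shares sum to a whole, so a larger share of one chain lowers those of the others.

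**Figure D3:**
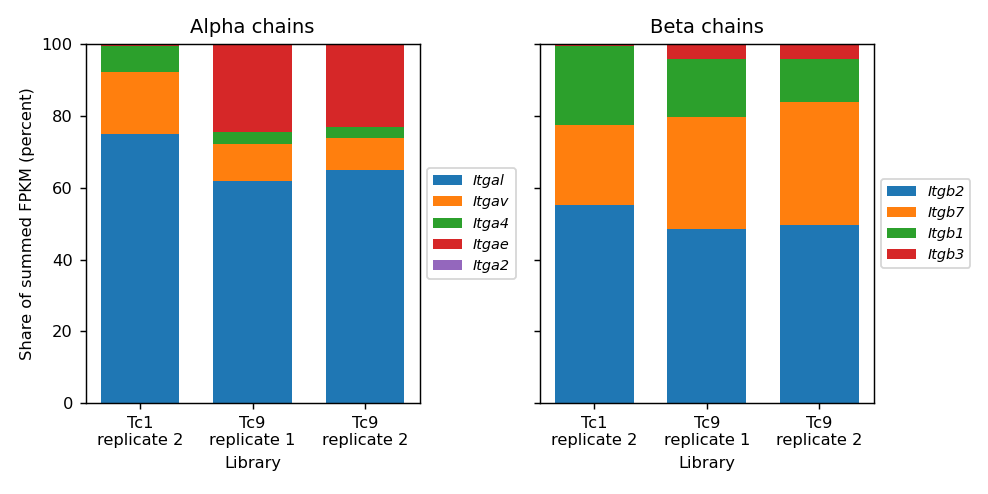
Share (percent) of each alpha chain in the summed alpha FPKM (left) and of each beta chain in the summed beta FPKM (right), in the 3 libraries that reach the genes. *Itgae*, in red on the left, takes 0.34% in Tc1 replicate 2 and 24.4% and 23.2% in the Tc9 libraries.

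**Figure D4:**
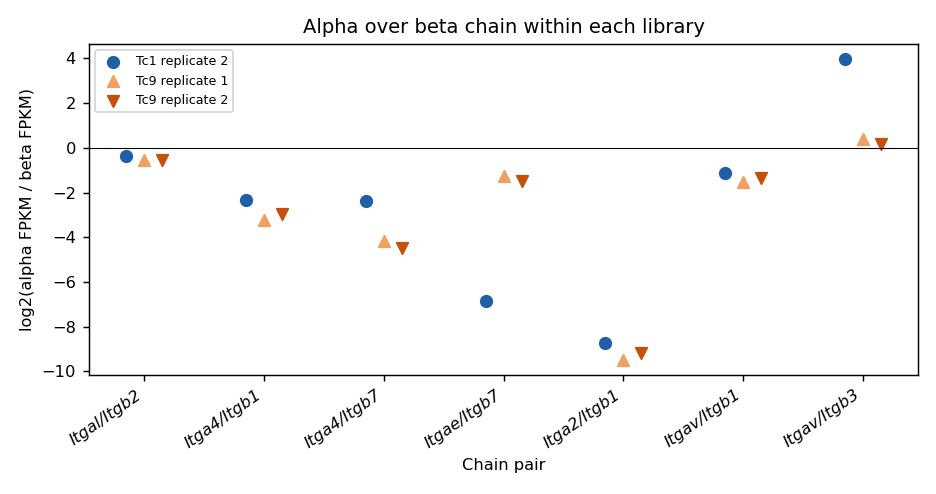
Log2 of alpha over beta chain FPKM for 7 chain pairs within each library. The *Itgae* to *Itgb7* ratio is 5.46 higher and the *Itgav* to *Itgb3* ratio differs by −3.69 in Tc9 cells on this scale, whereas the *Itgal* to *Itgb2* ratio differs by −0.21.

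The 3 genes whose levels followed *Itgae* most closely over the 3 libraries, by Euclidean distance of centred log2 CPM among 2621 genes, were *Il10*, *Gja5* and *Htr1b*. *Il10*, an anti-inflammatory cytokine gene, had 8 counts in Tc1 replicate 2 against 1094 and 891 in the Tc9 pair (distance 0.384). *Gja5*, a connexin gene, had 0 against 130 and 99 counts (distance 0.410), and *Htr1b*, a serotonin receptor gene, had 0 against 97 and 81 counts (distance 0.616). With 3 libraries, likeness mainly says that a gene was low in Tc1 replicate 2 and high in both Tc9 libraries.

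Of 17 other integrin chains, 8 could be tested, all in 3 libraries, and 2 rose and none fell, beside 12.5% of all genes higher and 7.93% lower in that test. *Itga7*, which pairs with β1 as a laminin receptor, had 23 counts in Tc1 replicate 2 against 70 and 106 in the Tc9 pair (log2 fold change 1.90 ± 0.43 SE, adjusted p = 0.00011, edgeR). *Itga5*, the α5 chain of the fibronectin receptor, had 147 against 262 and 316 counts (0.95 ± 0.28 SE, adjusted p = 0.0065, edgeR), a call lost with the scaling factors of the 4-library range (0.069), with the degrees of freedom of the 4-library fit (0.071) and with DESeq2 (0.082). *Itga6* had 785 against 1295 and 1042 counts and did not pass (adjusted p = 0.110, edgeR). *Itgb6* and *Itgb2l* were at 0 in all 3 libraries.

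Integrins are switched to their binding state from inside the cell by talin, kindlin and the small GTPase Rap1. Of 31 genes of this step, 9 were tested and 1 was called, none of 4 in the 4-library test, where 34.1% of all genes were called, and 1 of 5 in the 3-library test, where 20.4% were. *Dok2*, an adaptor that competes with talin for beta chain tails, had 1236 counts in Tc1 replicate 2 against 3371 and 4022 in the Tc9 pair (log2 fold change 1.55 ± 0.28 SE, adjusted p = 5.12e-07, edgeR). *Fermt3*, the kindlin of blood cells, and *Rap1a* did not pass (adjusted p = 0.103 and 0.843, edgeR, 4 libraries). Of the genes reached by the replicate 2 libraries alone, which give no test, 2 of 12 were past 2-fold higher in Tc9 replicate 2, against 10.4% of 6225 genes, and 0 were past 2-fold lower, against 5.33%. *Tln1*, which encodes talin, had 11782 counts in Tc1 replicate 2 and 21204 in Tc9 replicate 2. The log2 ratio was 0.81, with an exact binomial 95% interval of 0.78 to 0.85 that covers counting error only.

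Of 37 genes of adhesion signalling downstream of integrins, 15 were tested. In the 4-library test 2 of 8 rose and 2 fell, where 34.1% of 1284 genes were called, 17.4% higher and 16.7% lower, and in the 3-library test 0 of 7 were called, where 20.4% of all genes were. The tetraspanin genes *Cd81* and *Cd151*, whose products associate with integrins, were higher in Tc9 cells by 0.58 ± 0.13 and 0.72 ± 0.20 (log2 scale, SE, adjusted p = 0.0071 and 0.022, edgeR). *Cd9*, another tetraspanin gene, and *Actn1*, encoding α-actinin, were lower, with log2 fold changes of −0.77 ± 0.15 and −0.49 ± 0.14 (SE, adjusted p = 0.0047 and 0.022, edgeR). *Cd9* had 287 and 322 counts in Tc1 cells against 169 and 188 in Tc9 cells, with no overlap. Without Tc1 replicate 2, none of these 4 genes passed (adjusted p of 0.073 for *Cd9*, 0.15 for *Cd151*, 0.18 for *Cd81* and 0.23 for *Actn1*, edgeR), and without Tc1 replicate 1 *Cd81* (0.078) and *Actn1* (0.16) did not. The calls of *Cd151* (0.075) and *Actn1* (0.083) were also lost with no filter on low counts, and those of *Cd151* (0.12), *Cd81* (0.053 and 0.061) and *Actn1* (0.13 and 0.14) with limma on log2 FPKM at a pseudocount of 1 and 0.1. For 3 of 15 genes reached by the replicate 2 libraries alone, the Tc9 value was past 2-fold higher, and for 0 it was past 2-fold lower, beside 10.4% and 5.33% of all genes. *Zyx*, encoding the focal adhesion protein zyxin, had 4919 counts in Tc1 replicate 2 and 12008 in Tc9 replicate 2.

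Transcripts of the ligands of these integrins were mostly low, and 7 of the 15 ligand genes reached by at least 3 tables had at most 3 counts in each of them. Of 26 ligand genes, 6 were tested, and 2 rose and none fell. These were the 1 gene tested in 4 libraries, where 17.4% of all genes rose, and 1 of 5 tested in 3 libraries, where 12.5% did. *Cdh1*, encoding the αEβ7 ligand E-cadherin, had 10 and 7 counts in Tc1 cells against 48 and 62 in Tc9 cells (log2 fold change 2.68 ± 0.35 SE, adjusted p = 0.00042, edgeR, 4 libraries). *Fn1*, encoding fibronectin, had 10 counts in Tc1 replicate 2 against 84 and 87 in the Tc9 pair (3.05 ± 0.50 SE, adjusted p = 3.94e-08, edgeR, 3 libraries). The LFA-1 ligand gene *Icam1* had 2602 against 1878 and 2064 counts and did not pass (adjusted p = 0.233, edgeR). *Spp1*, encoding the αV ligand osteopontin, had 1032 counts in Tc1 replicate 2 and 51 in Tc9 replicate 2. The log2 ratio was −4.32 (exact binomial 95% interval −4.81 to −3.97, counting error only) with no replicate check. Of the 5 ligand genes with such a ratio, 2 were past 2-fold lower and 2 past 2-fold higher in Tc9 replicate 2, beside 5.33% and 10.4% of all genes, the latter being *Tgfb3* with 30 and 127 counts and *Thbs1* with 8 and 44. *Tgfb1*, whose latent product αV integrins bind, had 10438 and 17064 counts.

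The residency and egress list, which holds *Cdh1* as well, had 32 genes, of which 19 were tested, 5 rose and 3 fell. Of 7 tested in 4 libraries 3 rose and 2 fell, where 34.1% of all genes were called, and of 12 tested in 3 libraries 2 rose and 1 fell, where 20.4% were. Among its regulators, *Ahr*, the aryl hydrocarbon receptor gene, had 73 and 75 counts in Tc1 cells against 869 and 744 in Tc9 cells (log2 fold change 3.45 ± 0.16 SE, adjusted p = 4.62e-07, edgeR, 4 libraries). *Runx1* had 272 and 260 against 631 and 721 counts (1.35 ± 0.13 SE, adjusted p = 6.25e-05). *Runx3*, a regulator of *Itgae* and of CD8+ T cell residency, had 10862 and 9804 against 10032 and 11650 counts, which overlap (adjusted p = 0.654, edgeR). *Klf3*, a transcription factor gene, rose from 127 counts to 509 and 504 (1.97 ± 0.29 SE, adjusted p = 3.31e-10, edgeR, 3 libraries). *Ccr9*, the gut-homing receptor gene, rose from 8 counts to 46 and 32 (2.24 ± 0.61 SE, adjusted p = 0.0021, edgeR, 3 libraries), a call lost with DESeq2 (0.11) and with the degrees of freedom of the 4-library fit (0.0501).

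Other residency genes fell in the cells with more *Itgae*. *Cd69*, whose product blocks tissue exit, had 1232 and 1108 counts in Tc1 cells against 511 and 449 in Tc9 cells (log2 fold change −1.28 ± 0.13 SE, adjusted p = 6.23e-05, edgeR, 4 libraries). *Prdm1*, encoding Blimp-1, had 336 and 359 against 89 and 108 counts (−1.81 ± 0.17 SE, adjusted p = 3.96e-05). *Zfp683*, encoding Hobit, was at 0 in all 4 libraries. *Ccr7*, a lymph node homing receptor gene, fell, with 15814 counts in Tc1 replicate 2 against 7488 and 9298 in the Tc9 pair (−0.94 ± 0.24 SE, adjusted p = 0.0011, edgeR, and 0.059 with the scaling factors of the 4-library range). The exit receptor gene *S1pr1* did not pass (1075 against 1212 and 1271 counts, adjusted p = 0.668, edgeR). The list thus did not move as one, since *Ahr* and *Runx1* were higher and *Cd69* and *Prdm1* were lower in the same Tc9 libraries.

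**Figure D5:**
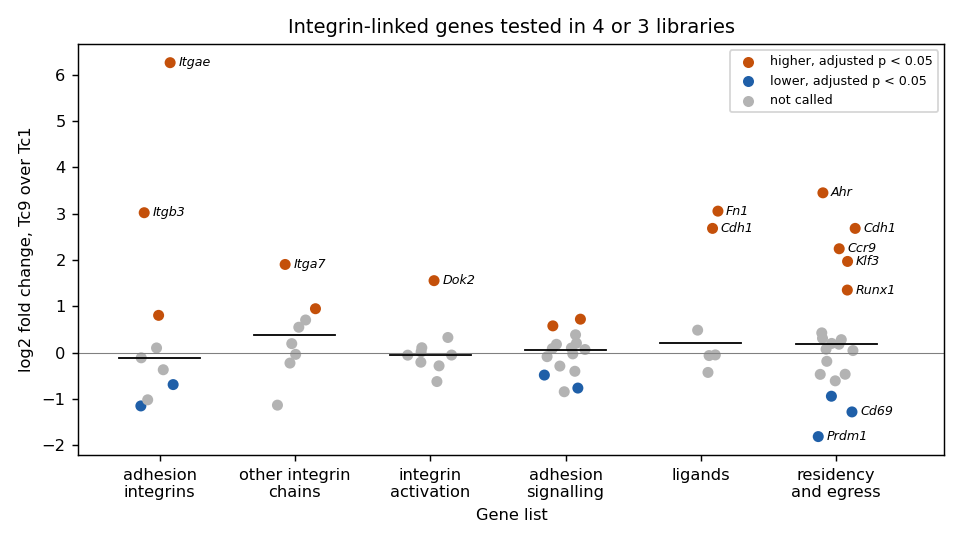
Log2 fold change of Tc9 over Tc1 for the genes tested in 4 or 3 libraries, by list, with the list's median as a bar and genes called beyond 1.2 on either side named. *Itgae* at 6.26 lies above all other points, and the medians of the 6 lists lie between −0.11 and 0.37.

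TGF-β signalling genes were also in the list. *Smad2*, *Smad3*, *Smad4* and *Smad7*, which carry and restrain the signal, did not pass (adjusted p = 0.495, 0.932, 0.646 and 0.661, edgeR). The receptor gene *Tgfbr1* had 840 counts in Tc1 replicate 2 and 2004 in Tc9 replicate 2, and *Tgfbr2* had 2937 and 2259, with no replicate check. The SMAD repressor genes *Skil*, with 4191 and 2342 counts, and *Ski*, with 3264 and 4548, were reached by the same libraries alone.

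Markers of other cells were measured beside the integrins. Of 19 myeloid markers, 16 were reached by at least 3 tables. Of these, 9 had at most 3 counts in every library, among them the macrophage genes *Lyz2*, *Csf1r* and *Adgre1*. Other myeloid genes had more. *Apoe* had 440 and 416 counts in Tc1 cells against 345 and 398 in Tc9 cells, and *Cd68* had 226 and 221 against 358 and 439. *Itgax* had 153.74 counts in Tc1 replicate 2 against 170.95 and 187.53 in the Tc9 pair. The summed myeloid level was 51.8 CPM (counts scaled to library size) in Tc1 replicate 2 and 54.2 and 65.0 in the Tc9 libraries, led by *Cd74*. Of the 6 myeloid markers tested, *Cd68* was called higher among 2 in 4 libraries, where 17.4% of all genes were, and *Cx3cr1* among 4 in 3 libraries, where 12.5% were. *Itgam*, a β2 partner of myeloid cells, had 12 against 9 and 2 counts. Of 10 stroma markers, the 7 reached by 3 tables summed to 0.56, 2.86 and 3.05 CPM, with *Col3a1* at 0 and *Fn1* called higher. The endothelial marker *Pecam1*, which the replicate 2 libraries alone reach, had 445 counts in Tc1 replicate 2 and 446 in Tc9 replicate 2. Other endothelial markers were near 0. *Cdh5* had at most 1 count in any library, and *Kdr* had 2 counts in Tc1 replicate 2 and 1 in each Tc9 library. Of 10 platelet markers, 5 were reached by 3 tables, and *Pf4*, *Ppbp*, *Gp9* and *Treml1* were reached by 1 table and could not be compared beside *Itgb3*. The 5 summed to 4.05 CPM in Tc1 replicate 2 and 3.60 and 3.77 in the Tc9 libraries. Of 8 B16 melanoma markers, the 2 reached by 3 tables, *Mitf* and *Dct*, summed to at most 0.23 CPM, with *Dct* at 0. Among those reached by the replicate 2 libraries alone, *Pmel* had 69.97 counts in Tc1 replicate 2 and 116.53 in Tc9 replicate 2, *Tyr* had 6 and 12.89, and *Tyrp1* and *Sox10* were at 0 in both. The list of B and NK cell markers, which also holds *Cd4*, summed to 7.08, 14.7 and 17.7 CPM. Most of this came from *Cd79b*, with 155 against 380 and 473 counts, and *Cd4* gave 1.41, 1.80 and 1.88 CPM. *Ms4a1* had at most 4 counts in any library. *Foxp3*, which marks regulatory T cells, cells that can carry CD103, had 34.61 counts in Tc1 replicate 2 and 1591.62 in Tc9 replicate 2, whereas *Cd4* had 45 to 58 counts in the 4 libraries (adjusted p = 0.406, edgeR). The part of *Foxp3*-expressing cells, and of *Cd79b* and *Cx3cr1*, in the *Itgae* and *Itgb3* results was not tested.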

How the data were processed

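RNA-Seq was done on Tc1 and Tc9 cells sorted from tumors, in 2 pools each. For every gene the authors deposited an expected count, not normalized, and an FPKM value scaled by gene length and library size, with a gene length. The labels name mm10, and the aligner and counting program are not given in the sources used here. Groups came from the sample titles. Tables list genes above 0 in identifier order, with 1535, 7408, 3152 and 15442 genes (Tc1 replicate 1, Tc1 replicate 2, Tc9 replicate 1, Tc9 replicate 2). Genes unlisted within a table's range were taken as 0, an incomplete last row was dropped, and genes in the range of 4, 3 or the replicate 2 libraries were compared separately. Library size came from the ratio of count to FPKM relative to Tc9 replicate 2. A floor of 3 counts is 0.0942, 0.0940, 0.0964 and 0.0973 CPM in these libraries, and floors and binomial intervals cover counting error only.

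Rounded counts were tested two-sided in edgeR 4.0.16 under R 4.3.3 by quasi-likelihood (TMM factors, filterByExpr at a minimum count of 10), with Benjamini-Hochberg adjustment over all genes tested. The 3-library fit has 1 residual degree of freedom per gene and found no gene-to-gene difference in spread, so its smallest p-values rest on a spread shared by all genes. In simulated data for the 3-library comparison of 2622 genes, it recovered 72.5% of genes changed by a log2 fold of 1 and 93.6% at 2, with 8 false calls among 176. The simulated counts took their spread from the same fit, equal in both groups. They therefore could not test whether the lone Tc1 library varies like the Tc9 libraries, or whether genes share a spread. Chain ratios, shares and levels used FPKM, without a test. Gene coordinates are from RefSeq, and strands and exon overlaps are from GENCODE, on GRCm38, the mm10 assembly. Promoters are from a RefSeq promoter set in GRCm38.p6, which held 6 of the 10 chains. It lacked *Itgal*, *Itgae*, *Itgb2* and *Itgb3*. Alternatives were DESeq2 1.42.0, limma 3.58.1 on log2 FPKM with a pseudocount of 1 or 0.1, other scalings and count minimums, and leaving out a library.

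The 10 chains and all gene lists were chosen with earlier results of these data known, and so were the restriction to ranges and the depth estimate. From each list, the text names the genes called, up to 6 in each direction by size, and other genes chosen after their values were seen. The 3 genes most like *Itgae* were chosen by distance over libraries. A few list genes are not reported here.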

Additional observations from a re-analysis of the deposited data

How the results depend on the processing

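In the 3-library comparison, 327 genes were called higher and 208 lower in Tc9 cells. These counts were 217 and 121 with DESeq2, 197 and 84 with the TMM factors of the 4-library range, and 185 and 101 with the degrees of freedom of the 4-library fit, the last pair of alternatives chosen after seeing the data. They were 0 and 0 with no count filter and with limma at either pseudocount, so no chain was called there, and the genes at an unadjusted p below 0.05 were 611, 706 and 757. The adjusted p of *Itgae* was then 0.12 with no filter and 0.15 with limma. *Itgae*, *Itgb3* and *Itga4* stayed called with DESeq2, both other scalings, the stricter minimum of 50 and both added alternatives. Leaving out a Tc9 library leaves no test, and gave 6.21 for *Itgae*, 3.01 for *Itgb3*, 0.68 to 0.92 for *Itgb7*, −1.18 to −1.12 for *Itga4* and −0.76 to −0.62 for *Itgav*. All 9 chains tested kept their sign under the alternatives run, and *Itga2* had no value at the minimum of 50. The 4-library test of other genes contains the same 3 libraries, so an overlap of its calls with the 3-library calls is no independent check. Of the 210 genes called in 3 libraries among the 1284 of the 4-library test, 204 were called there too, 46.6% of its 438 calls. In 4 libraries, 224 were higher and 214 lower, against 126 and 99 with limma at a pseudocount of 1, 115 and 77 at 0.1, 156 and 139 with no filter, and 99 to 424 and 74 to 430 leaving out a library. The log2 ratio difference of *Itga1* to *Itgb1*, at the floor, changed sign, with 0.27 from counts and −0.55 to 0.16 when a Tc9 library was left out. With the replicate block, 231 were higher and 213 lower. Same-numbered libraries did not deviate together (correlation −0.06 over genes), so the numbers name libraries only, and no paired fit of the 3 libraries was possible because no residual degree of freedom is left. The depth limits *Itga1* and *Itga2*.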
